A study of Mus musculus with 6 samples.

Results

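Genes of the S100 family were followed after knockdown of Dnmt1 in AtT-20, an established mouse line derived from an ACTH-producing pituitary tumour. The set holds 8 genes named by symbol, S100a1, S100a3, S100a4, S100a6, S100a10, S100a11, S100a13 and S100b. All probe sets that the platform annotation maps to such a symbol alone were taken, however dim. This gave 11 probe sets for 7 of the 8 genes, out of 18193 genes with a probe set of their own. S100a11 had none, because its single probe set carries 3 symbols, its own and those of 2 further loci, and it is therefore named only. The genes were selected on family membership with their siDNMT1 minus siNT differences on these same arrays already known, so these differences are given below as a description, with no test.

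Cells were transfected repeatedly during 8 days with siRNA at 20 nM, either siDNMT1, directed at the maintenance DNA methyltransferase, or siNT, a non-targeting control. The labels give 3 independent rounds of the procedure, called repeats here, with 1 Affymetrix array of each group per repeat. All arrays are of the same cell line, both groups received siRNA, and no untransfected cells were analysed here. Signals are intensities on a linear scale, scaled so that the arrays share a median log2 value, and a difference is siDNMT1 minus siNT on the log2(scaled signal + 5.29) scale. With 3 arrays per group, precision is limited by that number.

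S100 proteins are small proteins of the EF-hand type, which bind calcium in paired loops and mostly work as dimers. On binding calcium they open a groove that holds a partner protein, such as an annexin, so that they pass calcium signals on to membranes, the cytoskeleton and enzymes, and some act outside the cell on receptors such as RAGE, the product of Ager. In the pituitary S100b is the classical marker of the folliculostellate cells, which lie among the hormone-producing cells, and S100a4 is used as a marker of fibroblasts. In the mouse most S100 genes lie side by side on chromosome 3. RefSeq (GRCm38.p6) places 15 of them there, and S100b on chromosome 10.

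Promoter stretches of S100a6, S100a4, S100a1 and S100a13 are shown here, because CpG sites are what the targeted enzyme methylates. Methylation itself was not measured. The stretches come from RefSeq (GRCm38.p6), run 5′ to 3′ on the plus strand and end at the base before an annotated start site, and CpG sites are in capitals. The stretch upstream of S100a6 is chr3:90612644-90612893 and that upstream of S100a4 is chr3:90603520-90603769. S100a1 and S100a13 are transcribed away from each other, S100a1 from the minus strand and S100a13 from the plus strand. The third stretch, chr3:90514331-90514434, is the complete interval of 104 bases between their start sites.
S100a6: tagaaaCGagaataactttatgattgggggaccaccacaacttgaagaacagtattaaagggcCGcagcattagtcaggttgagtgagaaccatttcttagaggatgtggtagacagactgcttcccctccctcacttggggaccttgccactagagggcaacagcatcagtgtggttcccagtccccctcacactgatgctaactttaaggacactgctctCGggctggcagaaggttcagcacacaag
S100a4: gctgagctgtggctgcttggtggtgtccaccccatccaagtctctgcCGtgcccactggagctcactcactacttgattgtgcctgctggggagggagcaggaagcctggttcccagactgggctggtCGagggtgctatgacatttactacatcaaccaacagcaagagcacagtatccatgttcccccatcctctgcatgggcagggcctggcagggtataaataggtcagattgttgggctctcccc
S100a1-S100a13: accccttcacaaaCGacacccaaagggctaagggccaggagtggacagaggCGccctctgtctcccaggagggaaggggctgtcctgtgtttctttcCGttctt
The stretches hold 3, 2 and 3 CpG sites.

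In a window from 250 bases before to 50 bases after the start site, S100a6 had 6 CpG sites, S100a4 had 2 and S100b had 3. The motif is CG, which reads the same on both strands. S100a1 had 11 and S100a13 had 14, in windows that overlap by 204 bases. The window of S100a11 held 15, and the 4 windows of S100a3 held 0 to 5. RefSeq windows were found for 7 of the 8 genes, all but S100a10. Among all 32851 windows of this length the median was 7 CpG sites, and 47.9% held 6 or fewer, the count of S100a6. A count of at least 14, as in S100a13, was found in 36.3% of windows. The counts of S100a1, S100a13 and S100a11 therefore lay above the median, and those of S100a6, S100a4, S100a3 and S100b below it. None of the 7 genes with a window reached the class of CpG-dense windows with 21 or more sites.

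**Figure D1:**
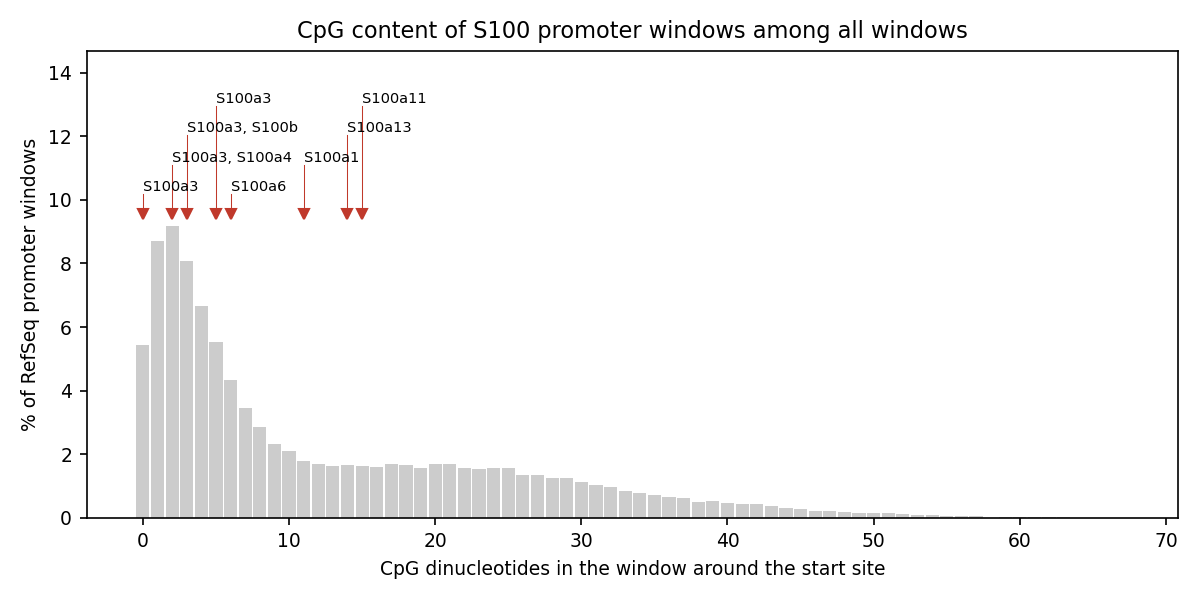
Share of RefSeq promoter windows (y axis, percent) by number of CpG sites per window (x axis), with arrows at the counts of the S100 genes. S100a6 at 6 sites lies close to the median of 7, S100a4 and S100b lie at 2 and 3, and S100a1, S100a13 and S100a11 lie at 11 to 15.

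The targeted transcript and the identity of the cells were checked before the S100 genes were read. Dnmt1 signal on its brightest probe set was 214, 142 and 301 in the knockdown of repeats 1, 2 and 3, against 541, 701 and 619 in the control. The knockdown thus kept 39.6%, 20.2% and 48.6% of the control signal, and repeat 2 was the most depleted (paired limma adjusted p = 0.0211, and 0.151 without pairing). Pomc, the hormone precursor gene of corticotrophs, had signals of 5576 to 10538, and Tbx19, the corticotroph transcription factor gene, 1375 to 1670. Over all 27022 tested probe sets, limma without pairing called 0 at an adjusted p under 0.05 (0% of those tested), with 1025 at an unadjusted p under 0.05. With the repeat as a block it called 23, or 0.0851%, of which 8 (0.0296%) were higher and 15 (0.0555%) lower.

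Of the 11 S100 probe sets, 5 were higher in the knockdown in each of the 3 repeats and 0 were lower in each. Over all 45037 probe sets the corresponding shares were 11.8% and 15.9%. For 4 of the 11 the groups were separate, always with the knockdown higher, against 3.92% of all probe sets in that direction and 5% in the other. Without repeat 1, or without either of its arrays, 8 of the 11 were higher in each repeat that was left. Fewer repeats are easier to satisfy. The share over all probe sets was not computed for that setting, so the 8 cannot be set against the 11.8%. The 4 without overlap belong to S100a1, S100a6, S100a10 and S100a13. A difference of 1 or more was found for 2 of the 11, against 0.99% of all probe sets, and a difference of -1 or less for 0, against 0.833%. Because the genes were chosen with these values known, nothing is read from the counts. Only 5 of the 11 probe sets, of S100a1, S100a4, S100a6 and S100a13, had a mean signal of at least 16.8, the limit of the tested probe sets, and the other 6 were dim. S100a6 and S100a4 passed that limit through the knockdown arrays, since their control means were 3.06 and 11.2. With the brightest probe set of each of the 7 genes, 4 were higher and 3 lower, and the median difference was 0.12, against -0.05 over the brightest probe sets of all 18193 genes.

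**Figure D2:**
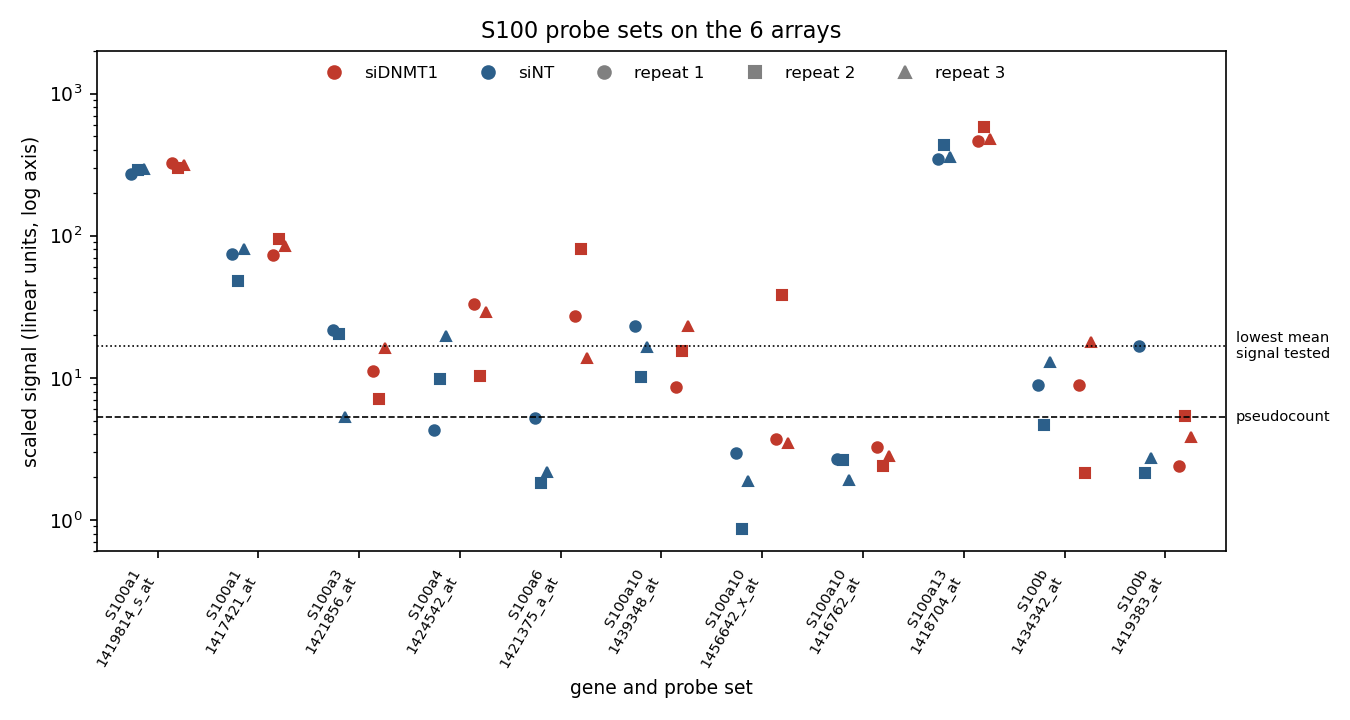
Scaled signal (y axis, log scale) of the 11 S100 probe sets (x axis) on each array, knockdown in red, control in blue, the symbol giving the repeat. S100a13 and S100a1 lie far above the dim limit, S100a6 is below the pseudocount on each control array and above it on each knockdown array, and the S100b probe sets lie on both sides of the pseudocount in both groups.

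S100a6, or calcyclin, binds annexins and the ubiquitin-ligase adaptor CacyBP, the product of Cacybp, and is abundant in proliferating and fibroblast-like cells. It had the largest difference of the set, on probe set 1421375_a_at. Its scaled signals were 27.2, 80.8 and 13.7 in the knockdown of repeats 1, 2 and 3 and 5.18, 1.82 and 2.18 in the control. Each control value was below the pseudocount, so the control arrays give a level near background, and each knockdown value was above it. The groups did not overlap, and the lowest knockdown signal, in repeat 3, was still above the highest control signal, in repeat 1. The difference was 1.63, 3.60 and 1.35 in the 3 repeats, with a mean of 2.19 ± 1.23 (SD, n = 3). Its size depends on the pseudocount, and was 3.09 with a pseudocount of 1 and 1.24 with 20. On the linear scale the ratio was 5.24, 44.5 and 6.29, where each ratio is uncertain because its denominator is near background.

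The S100a6 difference was largest in repeat 2, where the least Dnmt1 remained, and smallest in repeat 3, where the most remained. This order rests on 3 repeats and was not tested. The linear ratios of repeats 1 and 3 were in the opposite order.

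By the distance between the 3 repeat differences, the genes with the pattern most like that of S100a6 were Tex19.1, Tex19.2 and Gsdmd. The root mean square distances over 3 repeats were 0.383, 0.464 and 0.779. Tex19.1, a germline gene, had differences of 2.12, 3.92 and 1.03, and its paralog Tex19.2 of 1.80, 2.87 and 1.05. Gsdmd, encoding a pore-forming protein, had differences of 2.28, 2.55 and 1.90. These genes were picked for this likeness, so a shared order of the repeats follows from the choice.

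**Figure D3:**
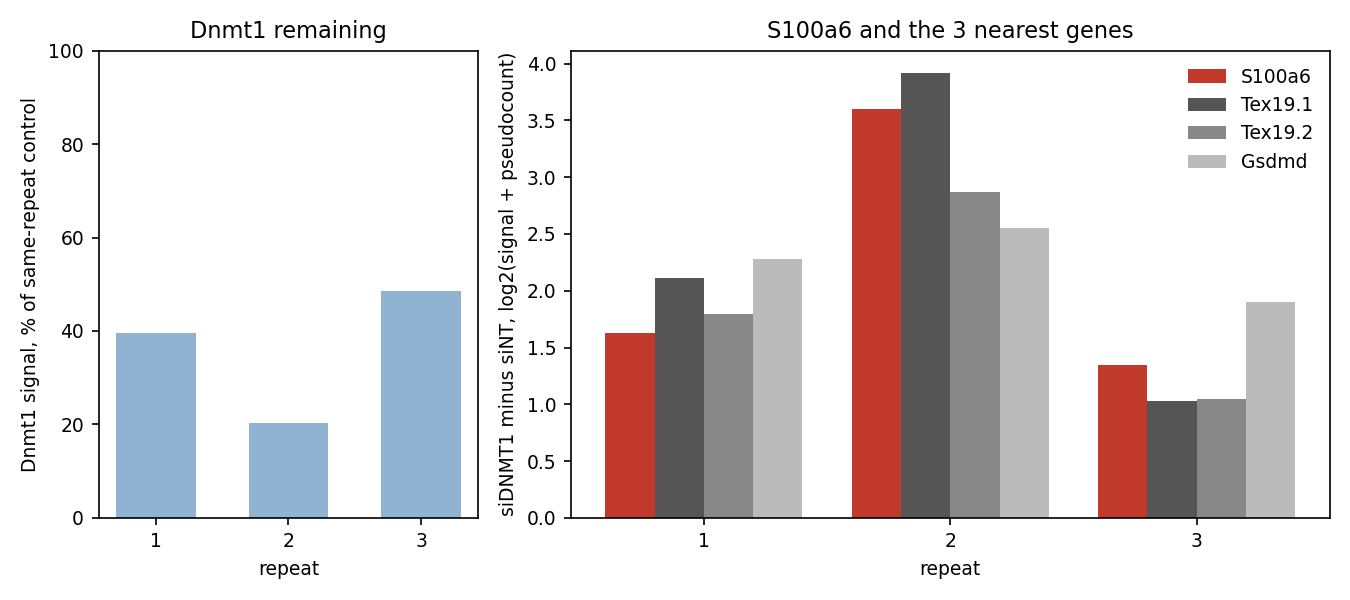
Left, Dnmt1 signal remaining in the knockdown (y axis, percent of the control of the same repeat) for repeats 1 to 3. Right, differences of S100a6, Tex19.1, Tex19.2 and Gsdmd in each repeat (y axis, log2), without error bars because each bar is 1 pair of arrays. Dnmt1 remaining is lowest in repeat 2, at 20.2%. The 3 genes beside S100a6 were picked for a like pattern, so that their bars follow those of S100a6 is fixed by the choice.

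S100a13 is a protein that takes part in the release of FGF1 and interleukin 1 alpha from cells. It was the brightest gene of the set and, with the median scaling used here, the most even, on probe set 1418704_at. Its signals were 463, 580 and 479 in the knockdown and 348, 432 and 357 in the control. The groups did not overlap, although the highest control value, in repeat 2, came close to the lowest knockdown value, in repeat 1. Within repeats the ratio was 1.33, 1.34 and 1.34. The log2 difference was 0.41, 0.42 and 0.42, a mean of 0.41 ± 0.0077 (SD, n = 3). This evenness depends on the scaling. Before scaling the signals were 372, 831 and 430 in the knockdown and 272, 567 and 338 in the control, with less even ratios. Over all 45037 probe sets, dim ones included, 4883 had a larger difference. Among the 27022 tested probe sets 1881 did.

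S100a1, known from heart and skeletal muscle where it acts on calcium release and uptake, shares its promoter interval with S100a13, shown above. Its brighter probe set, 1419814_s_at, of a type that can recognise several transcripts and with no accession in the annotation, read 324, 297 and 313 in the knockdown and 272, 289 and 295 in the control. The groups parted by only a few signal units, between 297 in knockdown repeat 2 and 295 in control repeat 3. The difference was 0.12 ± 0.11 (SD, n = 3), with this scaling less even than that of S100a13 and smaller in each repeat. The dimmer probe set, 1417421_at, read 73.6, 94.2 and 85.2 against 74.3, 48.0 and 80.9. There the groups overlapped, and the difference of 0.32 ± 0.50 (SD, n = 3) came from repeat 2.

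S100a4, or metastasin, binds non-muscle myosin and is linked to cell motility. Its signals on probe set 1424542_at were 33.2, 10.4 and 29.0 in the knockdown and 4.30, 9.87 and 19.6 in the control. Each repeat was higher in the knockdown but the groups overlapped, because knockdown repeat 2 lay below control repeat 3. The difference was 2.01, 0.05 and 0.46, a mean of 0.84 ± 1.03 (SD, n = 3), and it rests mostly on repeat 1. Without repeat 1 it was 0.25. The difference of S100a4 was thus smallest in the repeat in which that of S100a6 was largest.

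S100a3, a protein of the hair cuticle, was dim on probe set 1421856_at, with signals of 11.2, 7.09 and 16.1 in the knockdown and 21.8, 20.3 and 5.30 in the control. The repeats went in different directions, with differences of -0.72, -1.05 and 1.01.

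S100a10, or p11, is the family member that does not bind calcium and forms a stable complex with annexin A2 at membranes. Its 3 probe sets did not give a common picture. The brightest, 1439348_at, read 8.66, 15.4 and 23.1 in the knockdown and 23.3, 10.1 and 16.3 in the control, with overlapping groups and a difference of -0.07 ± 0.83 (SD, n = 3). Probe set 1456642_x_at, of a type that can cross-hybridise and likewise without an accession, read 3.72, 38.1 and 3.48 against 2.96, 0.866 and 1.87. Its groups did not overlap, but 1 array, knockdown repeat 2, carries its difference of 1.08 ± 1.51 (SD, n = 3), which was 0.21 without repeat 2. The remaining probe set, 1416762_at, stayed between 1.92 and 3.26 on all 6 arrays, below the pseudocount. That knockdown array of repeat 2 also held the highest signal of S100a6, S100a13 and the dimmer S100a1 probe set. With that array left out, their differences were 1.59, 0.32 and 0.24. With both arrays of repeat 2 left out, they were 1.49, 0.41 and 0.03. The cause of the high signals on that array was not tested.

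S100b, the glial and folliculostellate member, was dim and below the limit for testing. Its 2 probe sets, 1434342_at and 1419383_at, ranged from 2.15 to 17.97 and from 2.15 to 16.6 over the 6 arrays, with overlapping groups. Their differences were -0.02 ± 0.39 and -0.27 ± 1.09 (SD, n = 3), and neither had the same direction in all repeats.

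**Figure D4:**
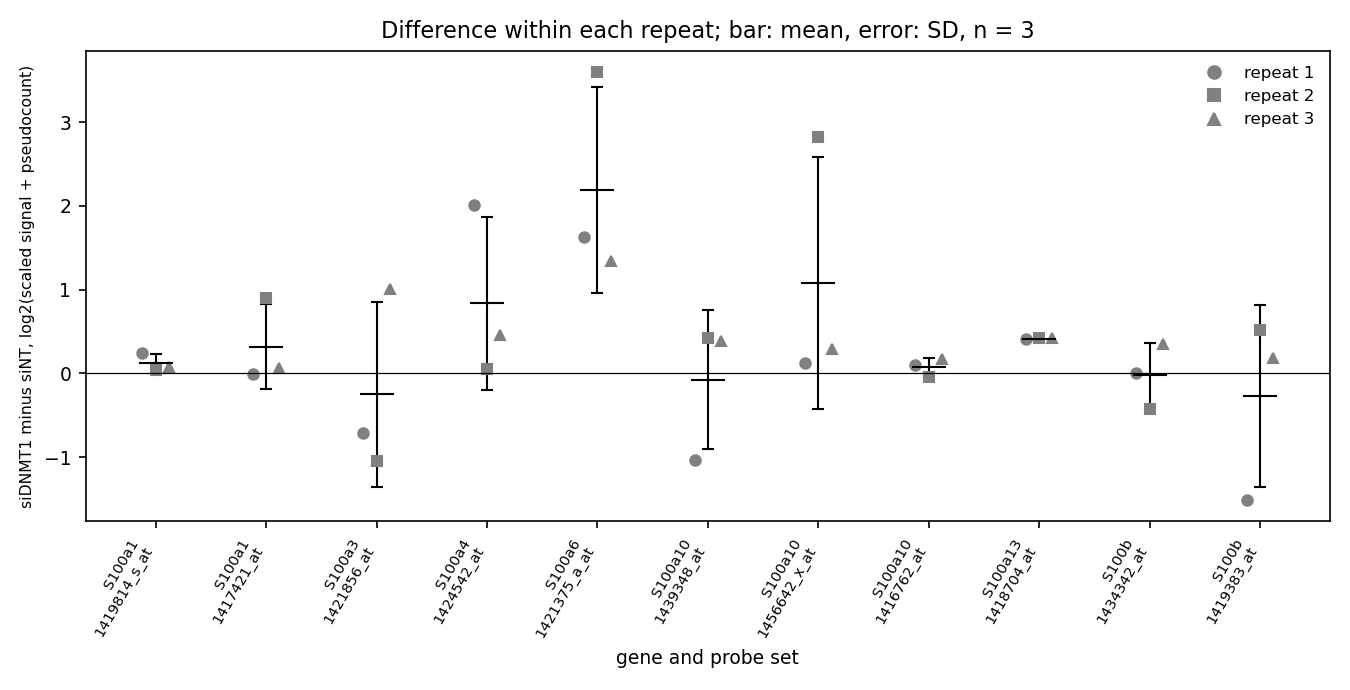
Difference between knockdown and control (y axis, log2) for the 11 S100 probe sets (x axis), with a symbol for each repeat, a bar at the mean and the SD over 3 repeats. S100a6 is above 1 in each repeat, S100a13 shows 3 nearly equal values around 0.41, and the S100a10 probe set with a mean of 1.08 rests on repeat 2.

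Of the S100 genes outside the set, 7 had a probe set of their own. S100a5, the neighbour between S100a4 and S100a6, differed by 0.39 (SE 0.58) with repeats from -1.29 to 2.19, and S100a16 by -0.25 (SE 0.32). The other 5, S100a7l2, S100a8, S100a9, S100a14 and S100g, were too dim to be tested. S100a14 differed by 1.25, 0.64 and 0.20 in the 3 repeats from control signals of 2.21 to 7.38. S100a8 and S100a9, subunits of calprotectin in neutrophils, had differences of 0.40 ± 0.77 and -0.64 ± 0.55 (SD, n = 3). These were listed with S100pbp, named for binding an S100 protein, and the S100-fused genes of the epidermal cluster. Of the 18 genes of this list 13 had a probe set and 4 were tested, namely S100a5, S100a16, S100pbp and Rptn. None of the 4 passed in limma with or without pairing, and 0 had an unadjusted p under 0.05.

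**Figure D5:**
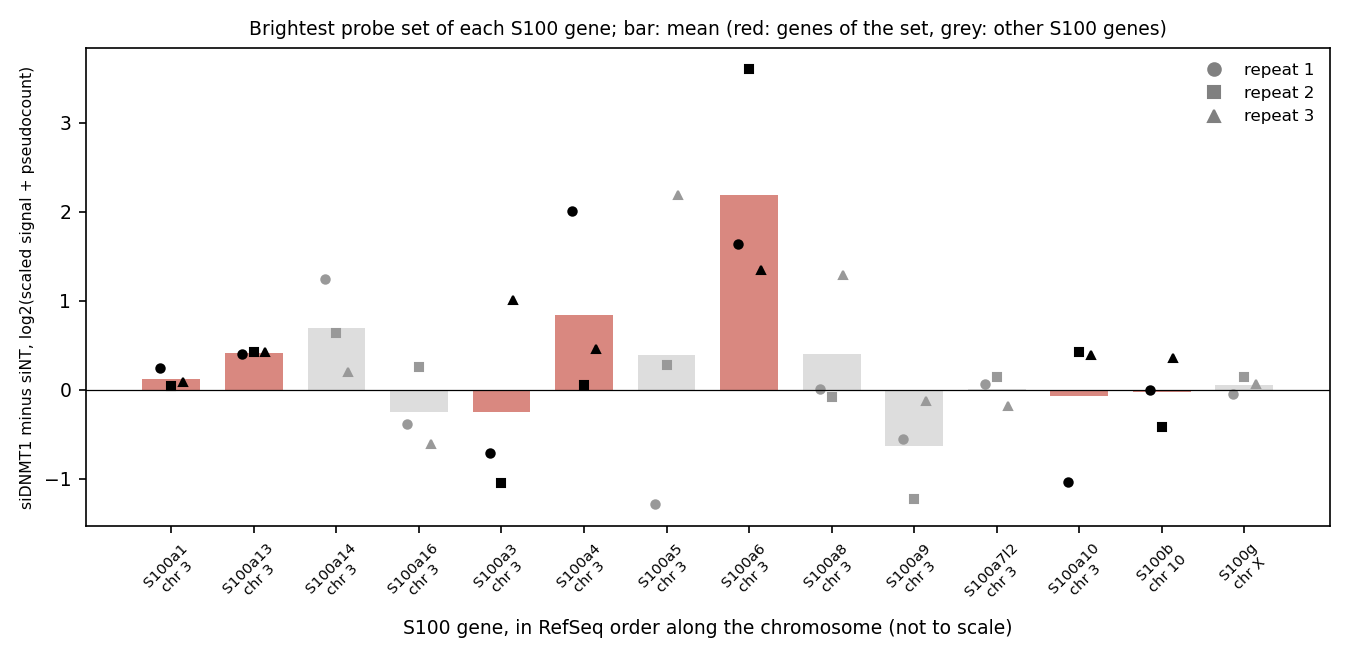
Difference (y axis, log2) of the brightest probe set of 14 S100 genes in chromosomal order (x axis, not to scale), red bars for the set and grey for other S100 genes, with a symbol for each repeat. Neighbours on chromosome 3 differ in size and direction, from 2.19 for S100a6 to -0.64 for S100a9.

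Binding partners and targets of S100 proteins were taken from a list of 46 genes, of which 33 were tested. Of these 13 were higher and 20 lower, with a median difference of -0.07, against -0.06 over all tested probe sets. In limma 0 passed without pairing (1 at an unadjusted p under 0.05) and 0 with the repeat as a block. Anxa2, the annexin that binds S100a10, was bright, at 1228, 1168 and 2114 in the knockdown and 1053, 1116 and 1945 in the control. It differed by 0.14 (SE 0.27). Anxa6 differed by -0.11 (SE 0.20) on its brightest probe set and by -0.34 to 0.19 on the other 3, and Anxa1, the partner of S100a11, was dim at 7.43 to 14.1.

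The listed partners with the smallest p were Anxa4, Htr1b, Kcnk3 and Fgf1. Anxa4, a membrane-binding annexin, read 216, 304 and 198 in the knockdown and 155, 148 and 161 in the control, without overlap. Its difference was 0.59 (SE 0.20, limma adjusted p = 0.9997, and 0.391 with pairing). Its other 2 probe sets were at 0.72 and 0.61. Htr1b, a serotonin receptor gene whose product binds p11, differed by 0.46 (SE 0.24), and Kcnk3, a potassium channel gene, by -0.38 (SE 0.22), although its other tested probe set was at 0.04. Fgf1, the growth factor released with S100a13, differed by -0.30 (SE 0.22) and -0.58 on its tested probe sets.

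Other genes of the EF-hand type numbered 49, of which 34 were tested, 13 higher and 21 lower, with a median of -0.09. In limma 0 passed in either fit, and 2 had an unadjusted p under 0.05 without pairing. The smallest p belonged to Ncald, encoding neurocalcin delta, a neuronal calcium sensor. Its signals were 338, 268 and 281 in the knockdown and 417, 452 and 481 in the control, without overlap, a difference of -0.60 (SE 0.16, limma adjusted p = 0.9997, and 0.229 with pairing). Its next brightest probe set differed by -0.62. Ncs1, another neuronal calcium sensor, differed by -0.39 (SE 0.18) on its brightest probe set and by 0.10 and -0.18 on the others, the calcineurin subunit gene Ppp3r1 by -0.38 (SE 0.18) and the channel-interacting protein gene Kcnip2 by -0.65 (SE 0.41).

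Among the protein-coding genes next to the S100 genes, up to 5 on each side of a run, 20 of 29 had a probe set and 11 were tested. Of these 3 were higher and 8 lower, with a median of -0.08, and 0 passed in limma with or without pairing (1 at an unadjusted p under 0.05). The 4 with the smallest p all lie on chromosome 10 near S100b. Pcnt, encoding the centrosomal protein pericentrin, differed by -0.86 (SE 0.25, limma adjusted p = 0.9997, and 0.290 with pairing), with repeats at -0.06, -1.21 and -1.31, but its other probe set was at -0.12. Mcm3ap differed by -0.28, Zfp280b by -0.23 and Slc5a4a by 0.16.

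Markers of other cell types were set beside the S100 values, since a change in the mixture of cells and a change of RNA per cell cannot be told apart in bulk samples. Of 8 tested fibroblast markers 6 were higher and 2 lower, and the summed signal of the 12 listed was 270 to 367 in the knockdown and 235 to 330 in the control. Pdgfra differed by 1.26 (SE 0.47), from control signals of 5.57 to 26.8, with its other probe sets dim and at -0.55 and 0.08, while Col1a1 was at 11.3 to 21.6 in both groups together. Of 6 tested folliculostellate markers other than S100b, 3 were higher and 3 lower, with sums of 1061 to 1587 and 967 to 1236, of which the metabolic gene Aldoc made up most. Vim, abundant in fibroblasts and folliculostellate cells, had at most 18.3 on its brightest probe set. Of 5 tested myeloid markers 3 were higher and 2 lower, with sums of 518 to 673 and 559 to 639. Over both groups Lyz2 was at 237 to 309 and Csf1r at 102 to 136 on their brightest probe sets. Ptprc was dim, at 0.848 to 18.6. Of 5 tested endothelial markers 4 were higher and 1 lower, with sums of 187 to 248 and 177 to 231. Of 10 tested corticotroph markers 4 were higher and 6 lower, with sums of 21250 to 30778 and 24838 to 32051. None of these markers passed in either limma fit, and their part in the S100 values was not tested. Pdgfra, Lum, Slc1a3 and Cd14, all counted as higher, had control means of 13.1, 15.7, 13.9 and 15.7, below the limit of 16.8. They were tested only because of their knockdown means, which tilts the counts toward higher. Over all tested probe sets 11024 were higher and 15998 lower.

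Across the array, differences varied with the CpG content of the promoter window, as a description over the 14452 genes matched to RefSeq windows, each with its most CpG-rich window. Genes with 0 to 3 CpG sites had a median difference of 0.014, those with 4 to 7 of -0.0055, those with 8 to 20 of -0.046 and those with 21 or more of -0.067. Differences of 1 or more were found for 1.54%, 1.83%, 0.754% and 0.447% of these genes. The CpG-poor classes also held more dim genes, 57.3% and 45.6% against 22.4% and 10.8%, and dim probe sets vary more. S100a6 and S100a3 fall in the class of 4 to 7 sites, with differences of 2.19 and -0.25. S100a4 and S100b fall in the class of 0 to 3, while S100a1 and S100a13 fall in that of 8 to 20.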

How the data were processed

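Total RNA of 6 samples, 3 per group, was hybridised to 1 array each. The deposited table holds 1 linear intensity per probe set and array, which the authors made with GCOS, per the submitters' processing notes. Neither labels nor header state its version or settings. Deposited medians ran from 19.8 to 36.3, so each array was scaled to a common median log2 value. The pseudocount of 5.29 is the 20th percentile of the deposited values. Of 45101 probe sets 64 are controls, and 27022 with a mean of at least 16.8, the 40th percentile, were tested with limma 3.58.1 in R 4.3.3 (lmFit, eBayes with trend, two-sided, Benjamini-Hochberg over all tested, threshold 0.05). The fits were tested on simulated data.

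The design without a block was the main one, and the repeat number as a block, called pairing, the alternative. Each SE given is from the main design, which does not use the pairing. After subtracting group means, arrays with the same number correlated across probe sets at 0.173, 0.231 and 0.257, so the numbers, which the labels give to independent rounds, pair the arrays.

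Symbols came from the platform annotation, where 34945 probe sets had 1 symbol, 932 several and 9160 none. RefSeq tables of GRCm38.p6 served for gene order and promoters. A gene is represented by its brightest probe set in the lists. The S100 genes and the lists were chosen with earlier results of these data known. The rule for named genes took every S100 gene, Dnmt1, the annexins that bind an S100 protein of the set, the defining markers, up to 4 genes per list with the smallest unadjusted p, and the 3 genes nearest to S100a6 in pattern. Anxa11, an annexin that this rule also took, is not described here. Alternatives were other scalings, pseudocounts and filters, the block, no trend, fewer probe sets and each array left out.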

Additional observations from a re-analysis of the deposited data

How the results depend on the processing

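Other settings changed how many probe sets limma called over the whole array. None of the 18 listed S100-related genes, 46 partners or 49 other EF-hand genes passed under the replicate block, trimmed mean, quantile or no scaling. The count over all tested probe sets was 0 as reported. It was 1 with trimmed mean scaling, with quantile normalization and with a filter at the 60th percentile, and 2 without scaling. Without probe sets of the types ending in _x_at or _s_at it was also 1. It was 23 with the replicate block and 3 with the block and trimmed mean scaling. Leaving out each array in turn gave 0 to 4 calls, with 4 without knockdown array 3 and 2 without knockdown array 1. The replicate block without 1 of the repeats gave 41, 34 and 266 for repeats 1, 2 and 3. The median of the 7 S100 genes, 0.12 as reported, was 0.32 without probe sets of those types, where the dimmer S100a1 probe set stands in, and 0.22 with the median over the probe sets of each gene. It was 0.12 to 0.32 when arrays or repeats were left out, the highest without knockdown array 2. Filters and the trend have no bearing on the S100 differences, for which every probe set was kept. S100a6, S100a13, S100a4, both S100a1 probe sets and 2 of the S100a10 probe sets were higher in the knockdown under each of the 16 or 17 settings run. Some of these could not change a direction. With all arrays kept, the replicate block leaves each difference as it was, and so does leaving out other probe sets. S100a6 ran from 1.24 to 3.09, S100a13 from 0.32 to 0.51 and S100a4 from 0.25 to 1.24. S100a3, the brightest S100a10 probe set and both S100b probe sets changed direction under some settings. The counts of S100 probe sets higher in each repeat and without overlap were added after the data were seen. They were 4 and 3 with quantile normalization, and 3 and 2 without probe sets ending in _x_at or _s_at. The S100a6 probe set, which ends in _a_at, was kept there. Without scaling the count without overlap was 2. Leaving out arrays or repeats, which leaves fewer to satisfy, gave 5 to 8 higher in each repeat left and 4 to 6 without overlap. The 8 were found without knockdown array 1, control array 1 or repeat 1. Shares over all probe sets were not computed for any of these settings, so nothing is read from these counts.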
